A study of Rattus norvegicus with 12 samples.

Results

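Glucocorticoid hormones act on the hippocampus through a pair of nuclear receptors, and 6 of the 28959 rows of the deposited expression table stand for these receptors and for genes tied to their signal. Nr3c1 encodes the glucocorticoid receptor and Nr3c2 the mineralocorticoid receptor. Fkbp5 and Sgk1 are known targets of the activated receptors. Hsd11b1 encodes an enzyme that regenerates active hormone inside cells, and Crh encodes corticotropin-releasing hormone. The 6 rows were picked by their rat Ensembl gene IDs, which were paired with these symbols outside the deposited table. Values are FPKM, reads scaled by gene length and library total. All 6 were among the 15253 rows that reached a mean of 0.5 FPKM over the libraries and were tested.

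The libraries come from hippocampal RNA of Sprague Dawley rats whose labels give an age of 6 to 7 weeks. In CUMS-Alb, CUMS-Flx and CUMS-Sal, rats went through 5 weeks of chronic unpredictable mild stress, a rodent procedure of changing mild stressors. CUMS-Alb rats received albiflorin, a monoterpene glycoside of peony root, at 7 mg/kg/d during the last 7 days. CUMS-Flx rats received fluoxetine, a serotonin reuptake inhibitor, over the same 7 days, at 10 mg/kg/d by the sample labels and 7 mg/kg/d by the series text. CUMS-Sal rats received saline, and Ctrl-Sal rats received saline without stress. Each group has 3 libraries, and nothing in the labels ties them to different animals. The p-values below therefore speak only of variation among libraries, part of which may be technical.

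Corticosterone, the main glucocorticoid of the rat, is released from the adrenal gland at the end of a hormone chain that starts with Crh in the hypothalamus. The mineralocorticoid receptor binds the hormone tightly and is rich in the hippocampus, while the glucocorticoid receptor binds it less tightly and is filled mainly at the daily peak and under stress. The bound receptor moves to the nucleus and switches on genes such as Fkbp5, whose protein binds the receptor complex and lowers its affinity for hormone in a short feedback loop.

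The sequences just upstream of the starts of the receptor targets, Sgk1 and Fkbp5, are shown because these are the genes through which the receptors' activity is usually read. They are the RefSeq sequences of build GRCr8, both on the minus strand and written 5′ to 3′, and each ends at the base before an annotated start. Capitals mark GC boxes (GGGCGG on either strand) and, in Sgk1, a TATA box (TATAAA) that begins 33 bases upstream of the start. The Sgk1 window is chr1:24804832-24805081, the most downstream of 3 annotated starts, and the Fkbp5 window is chr20:6543556-6543805.
Sgk1: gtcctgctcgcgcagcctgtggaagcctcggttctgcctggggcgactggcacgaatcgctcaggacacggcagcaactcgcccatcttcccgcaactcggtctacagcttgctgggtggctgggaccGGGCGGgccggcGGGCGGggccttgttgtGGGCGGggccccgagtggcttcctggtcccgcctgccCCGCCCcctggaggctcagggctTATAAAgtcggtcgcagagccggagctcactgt
Fkbp5: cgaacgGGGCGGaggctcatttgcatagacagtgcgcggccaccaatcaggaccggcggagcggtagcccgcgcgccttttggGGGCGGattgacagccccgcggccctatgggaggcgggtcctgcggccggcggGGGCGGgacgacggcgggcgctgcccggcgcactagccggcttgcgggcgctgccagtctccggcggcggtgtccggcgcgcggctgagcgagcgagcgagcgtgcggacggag

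The half-site of the glucocorticoid response element, AGAACA, was searched on both strands over the 250 bases upstream of each start. It was found in 0 of the 6 windows of the 3 genes with entries (Nr3c1, Fkbp5 and Sgk1). It lies in 17.5% of all 33469 windows of that length. A GC box was present in 5 of the 6 windows, against 30.5% of all windows. A TATA box on either strand was present in 2 of the 6, against 12.9%. Of the 6 windows 3 belong to Sgk1 alone, and enrichment or lack of these motifs was not tested. The expression table gives values by gene ID and not by start, so they do not tell which start was used.

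Libraries held 14735953 to 18109623 reads assigned to genes. Ctrl-Sal replicate 2 stood apart, with a median correlation to the other libraries of 0.977 across the tested rows, against 0.989 to 0.992 for the other 11. The table pairs no IDs with symbols, so the tissue label and the share of other cell types were not checked against markers. A lower level in this bulk tissue can mean fewer cells of a type or less RNA per cell, and these cannot be told apart.

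All 6 genes were detected in every library, and 5 of them at moderate to high levels. Per length, Sgk1 stood highest, at a mean of 57.7 FPKM over the 12 libraries, in the top 9.22% of the tested rows. Hsd11b1 followed at 29.4 FPKM, Fkbp5 at 24.7, Nr3c2 at 24.3 and Nr3c1 at 18.3, in the top 18.7% to 29.1%. Crh was lowest, at 1.23 FPKM, in the top 85.9%. Sgk1 was above each of the others in 12 of 12 libraries, and Nr3c2 was above Nr3c1 in 12 of 12. Hsd11b1 was above Fkbp5 in 11 of 12 libraries and above Nr3c2 also in 11, with the exceptions in CUMS-Sal. Fkbp5 and Nr3c2 did not differ in order beyond their spread, with Fkbp5 higher in 8 of 12 libraries.

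**Figure D1:**
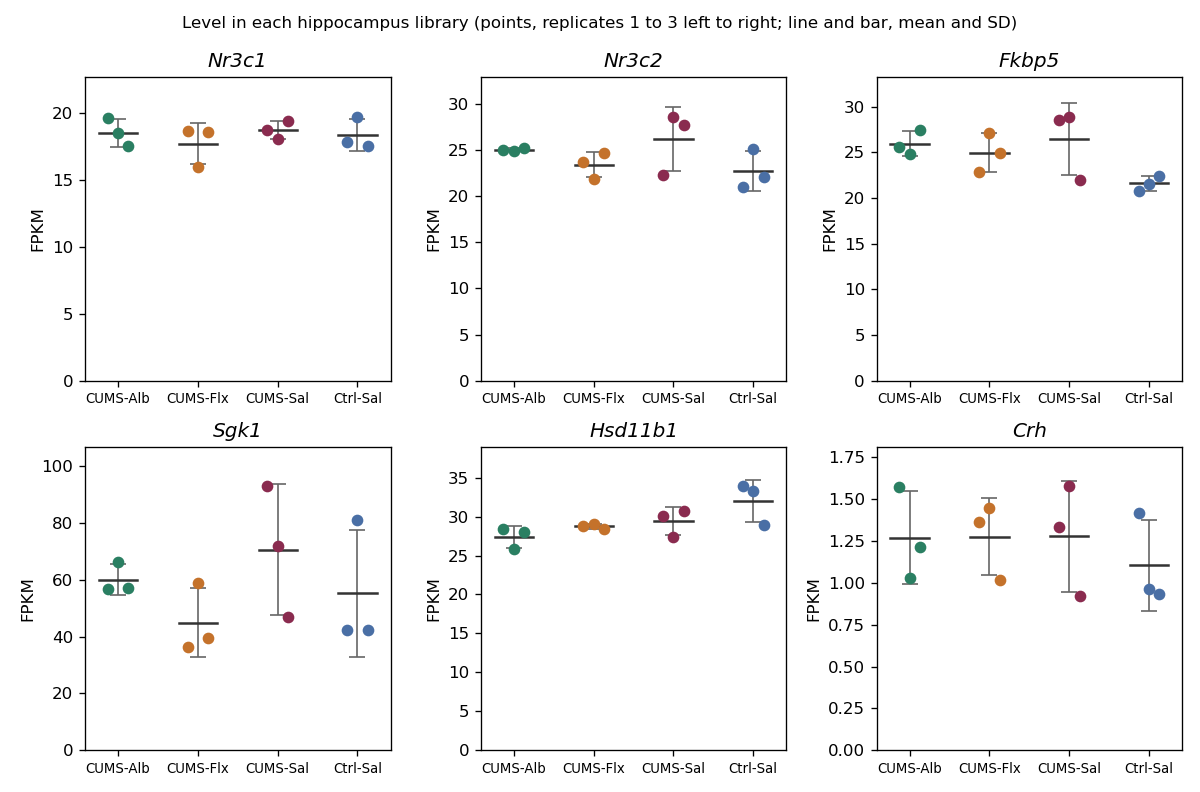
FPKM of the 6 genes in each library, with CUMS-Alb, CUMS-Flx, CUMS-Sal and Ctrl-Sal from left to right, points for libraries, a line for the mean and a bar for 1 SD (n = 3); every axis starts at 0. Sgk1 ranged from 36.5 to 92.8 FPKM, while Nr3c1 stayed between 16.0 and 19.7 FPKM.

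None of the 6 genes passed the test in any comparison between groups. The test was limma on log2(FPKM + 0.5) over the 15253 rows, with a call at a Benjamini-Hochberg adjusted p under 0.05. In CUMS-Sal against Ctrl-Sal 9.19% of all rows were called and 0 of the 6. That background of 1402 rows was itself unsteady, with 565 rows called under the replicate block, 369 without Ctrl-Sal replicate 2, 327, 1 and 24 without CUMS-Sal replicates 1, 2 and 3, and 0 when the fit held only the groups compared. It rose to 2637 rows without Ctrl-Sal replicate 3, to 1848 with limma-voom and to 1577 with a filter at a mean of 5 FPKM. In CUMS-Alb against Ctrl-Sal 2.5% were called, in CUMS-Flx against Ctrl-Sal 0.0524%, in CUMS-Alb against CUMS-Flx 0.00656%, and in the comparisons of each drug group with CUMS-Sal 0%, again with 0 of the 6 in each. A test of any difference among the 4 groups called 0.0459% of all rows and 0 of the 6, where Fkbp5 had the smallest adjusted p, 0.234. Of the 36 gene and comparison pairs, 4 had an unadjusted p under 0.05. Fkbp5 was such a gene in CUMS-Sal against Ctrl-Sal, where 30% of all rows were, Sgk1 in CUMS-Flx against CUMS-Sal, where 9.98% were, and both Fkbp5 and Hsd11b1 in CUMS-Alb against Ctrl-Sal, where 27.4% were. It held for 0 of the 6 in CUMS-Alb against CUMS-Sal (3.66% of all rows), CUMS-Alb against CUMS-Flx (4.98%) and CUMS-Flx against Ctrl-Sal (17.5%). With limma-voom on reads recovered from the FPKM values, 0 of the 6 were called in each comparison as well.

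Nr3c1 (ENSRNOG00000014096), the glucocorticoid receptor, varied little. CUMS-Alb replicates 1, 2 and 3 stood at 19.6, 18.5 and 17.5 FPKM and CUMS-Flx replicates 1, 2 and 3 at 18.6, 16.0 and 18.6 FPKM. CUMS-Sal libraries held 18.7, 18.0 and 19.4 FPKM, against 17.8, 19.7 and 17.5 FPKM for Ctrl-Sal. The groups overlapped in all 6 comparisons. Between CUMS-Sal and Ctrl-Sal the log2 difference was 0.03 (95% interval -0.14 to 0.20, limma adjusted p = 0.842). Differences in the other comparisons ran from -0.08 in CUMS-Flx against CUMS-Sal to 0.07 in CUMS-Alb against CUMS-Flx. The half-width of each 95% interval was 0.17 log2 units, which is a factor of 1.12 on FPKM + 0.5. Each value rests on 1335 to 1707 reads.

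Nr3c2 (ENSRNOG00000034007), the mineralocorticoid receptor, was highest in 2 of the CUMS-Sal libraries. CUMS-Alb replicates 1, 2 and 3 stood at 25.0, 24.8 and 25.2 FPKM and CUMS-Flx replicates 1, 2 and 3 at 23.7, 21.9 and 24.6 FPKM. CUMS-Sal libraries held 22.2, 28.6 and 27.7 FPKM, against 21.0, 25.1 and 22.0 FPKM for Ctrl-Sal. CUMS-Sal replicates 2 and 3 lay above all Ctrl-Sal libraries and replicate 1 among them. The log2 difference between CUMS-Sal and Ctrl-Sal was 0.20 (95% interval -0.01 to 0.40, limma adjusted p = 0.186). For Nr3c2 it was 0.11 with quantile normalization and 0.09 with library deviations centred at 0, where the adjusted p was 0.532 and 0.594 by limma. Without CUMS-Sal replicate 1 it was 0.31 and without replicate 2 it was 0.13 (limma adjusted p = 0.0639 and 0.465). CUMS-Flx differed from CUMS-Sal by -0.15 (-0.36 to 0.05, limma adjusted p = 0.609), or by -0.10 with centred libraries, -0.26 without CUMS-Sal replicate 1 and -0.09 without CUMS-Sal replicate 2. CUMS-Alb differed from CUMS-Sal by -0.06 (-0.26 to 0.15, limma adjusted p = 0.9996). The 3 CUMS-Alb libraries lay above the 3 CUMS-Flx libraries, as they did for 10.6% of all rows, with a log2 difference of 0.09 (-0.11 to 0.30).

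The ratio of the receptors within a library is not moved by a single scaling factor per library. The log2 ratio of Nr3c2 to Nr3c1 FPKM averaged 0.43 ± 0.09 in CUMS-Alb, 0.40 ± 0.05 in CUMS-Flx, 0.48 ± 0.21 in CUMS-Sal and 0.30 ± 0.06 in Ctrl-Sal (SD, n = 3). As a plain ratio, CUMS-Sal libraries had 1.19, 1.58 and 1.43 and Ctrl-Sal libraries 1.18, 1.27 and 1.26. CUMS-Sal thus spanned the widest range, with replicate 1 within the Ctrl-Sal values and replicates 2 and 3 above them. The CUMS-Alb ratios, 1.27, 1.34 and 1.44, and the CUMS-Flx ratios, 1.27, 1.37 and 1.33, lay within the CUMS-Sal range. Both genes were chosen with earlier results known, so this ratio is given as a description.

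**Figure D2:**
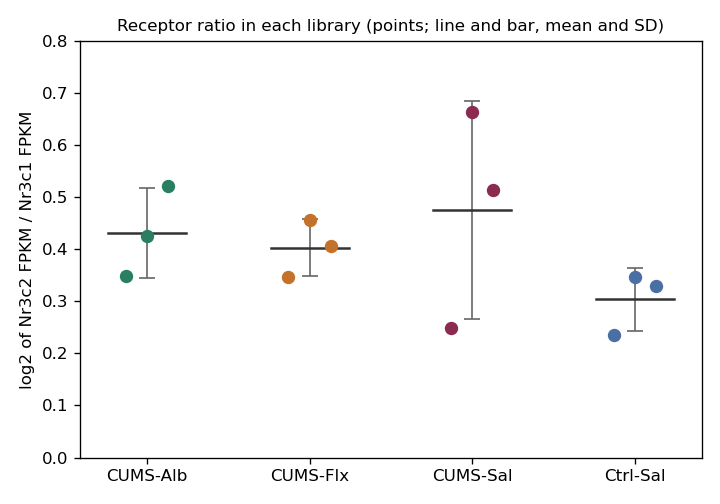
The log2 ratio of Nr3c2 to Nr3c1 FPKM in each library, with CUMS-Alb, CUMS-Flx, CUMS-Sal and Ctrl-Sal from left to right, a line for the mean and a bar for 1 SD (n = 3). All 12 values are above 0, and the CUMS-Sal libraries spread most, from 0.25 to 0.66.

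Fkbp5 (ENSRNOG00000022523), the receptor co-chaperone and hormone target, had its lowest group mean in Ctrl-Sal. CUMS-Alb replicates 1, 2 and 3 stood at 25.6, 24.8 and 27.5 FPKM and CUMS-Flx replicates 1, 2 and 3 at 22.8, 27.1 and 24.9 FPKM. CUMS-Sal libraries held 28.5, 28.9 and 21.9 FPKM, against 20.8, 21.6 and 22.4 FPKM for Ctrl-Sal. All CUMS-Alb and all CUMS-Flx libraries lay above all Ctrl-Sal libraries, whereas CUMS-Sal replicate 3 fell within the Ctrl-Sal range. Libraries lay apart in that direction for 24.6% of all rows in CUMS-Alb against Ctrl-Sal and 11.9% in CUMS-Flx against Ctrl-Sal.

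The mean of Fkbp5 was 26.4 ± 3.91 FPKM in CUMS-Sal and 21.6 ± 0.843 FPKM in Ctrl-Sal (SD, n = 3). The difference was 0.28 on the log2 scale (95% interval 0.06 to 0.49, unadjusted p = 0.0171, limma adjusted p = 0.0896). The largest unadjusted p called in that comparison was 0.00459. The median of all rows was itself 0.10 above 0. Fkbp5 therefore lay 0.17 above that median, and with library deviations centred at 0 its limma adjusted p was 0.286. With CUMS-Sal replicates 1, 2 and 3 left out in turn, the difference was 0.22, 0.21 and 0.40 (limma adjusted p = 0.230, 0.270 and 0.0593). With the replicate number as a block the limma adjusted p was 0.118.

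For Fkbp5, the drug groups stood near the saline-treated stressed rats when all libraries were kept. The log2 difference of CUMS-Alb from CUMS-Sal was -0.02 (95% interval -0.24 to 0.20, limma adjusted p = 0.9996). For CUMS-Flx from CUMS-Sal it was -0.07 (-0.29 to 0.14, limma adjusted p = 0.829). Leaving out CUMS-Sal replicates 1, 2 and 3 in turn gave 0.04, 0.05 and -0.14 for CUMS-Alb. For CUMS-Flx it gave -0.02, -0.01 and -0.20. CUMS-Alb differed from Ctrl-Sal by 0.26 (0.04 to 0.48, limma adjusted p = 0.123) and CUMS-Flx from Ctrl-Sal by 0.20 (-0.02 to 0.42, limma adjusted p = 0.318). The median of all rows was itself 0.09 above Ctrl-Sal in CUMS-Alb and 0.05 above it in CUMS-Flx. With library deviations centred at 0, the Fkbp5 differences from Ctrl-Sal were 0.17 and 0.15 (limma adjusted p = 0.319 and 0.455). These comparisons share the Ctrl-Sal or the CUMS-Sal libraries.

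Sgk1 (ENSRNOG00000011815), a kinase gene induced by glucocorticoids, had by far the widest spread of the 6. CUMS-Alb replicates 1, 2 and 3 stood at 56.9, 66.3 and 57.1 FPKM and CUMS-Flx replicates 1, 2 and 3 at 36.5, 58.8 and 39.5 FPKM. CUMS-Sal libraries held 92.8, 71.9 and 46.9 FPKM, against 42.4, 81.1 and 42.3 FPKM for Ctrl-Sal. A single high library, replicate 2, raised the mean in Ctrl-Sal and likewise in CUMS-Flx. CUMS-Sal replicate 1 was the highest of the 12 libraries, Ctrl-Sal replicate 2 the second highest, and the other Ctrl-Sal libraries were about as low as CUMS-Flx replicates 1 and 3. Within CUMS-Sal the highest library was 1.98 times the lowest, within Ctrl-Sal 1.92 times, within CUMS-Flx 1.61 times and within CUMS-Alb 1.17 times.

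This spread exceeds what counting gives. Sgk1 rests on 1647 to 3835 reads a library, for which counting alone gives an SD of 0.03 log2 units, while the SD within groups was 0.41. Of the 1000 rows nearest to it in level, 99.7% had a smaller SD, with a median of 0.09. For the other 5 genes 32.8% to 72.5% of such rows had a smaller SD. Ctrl-Sal replicate 2, second highest for Sgk1, is the library that stood apart, and its part in the spread was not tested.

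**Figure D3:**
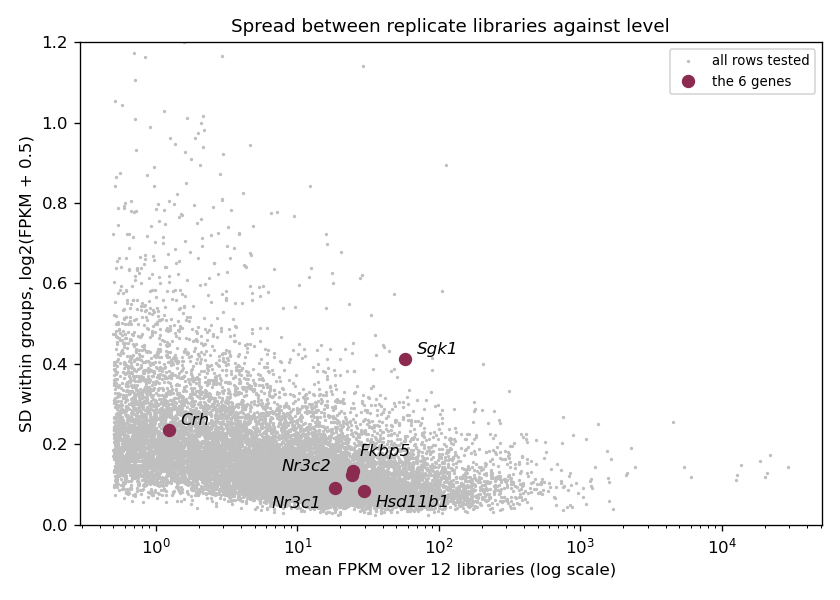
Within-group SD of log2(FPKM + 0.5) against mean FPKM over the 12 libraries on a log axis, with grey points for the tested rows and large points for the 6 genes (11 rows lie above the axis). Sgk1, at an SD of 0.41, lies far above rows of its level, and the others lie between 0.08 and 0.23.

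No group difference in Sgk1 was called. CUMS-Sal averaged 70.5 ± 23.0 FPKM and Ctrl-Sal 55.3 ± 22.4 FPKM (SD, n = 3), a log2 difference of 0.37 (95% interval -0.23 to 0.96, limma adjusted p = 0.401). Without CUMS-Sal replicate 1 that difference was 0.14 and without CUMS-Sal replicate 3 it was 0.63. Without Ctrl-Sal replicates 1, 2 and 3 it was 0.21, 0.68 and 0.21. CUMS-Flx averaged 44.9 ± 12.1 FPKM, and its difference from CUMS-Sal was the largest of all 36, at -0.62 (-1.22 to -0.03, unadjusted p = 0.0422, limma adjusted p = 0.482). CUMS-Flx replicates 1 and 3 lay below all CUMS-Sal libraries and replicate 2 among them. Without CUMS-Sal replicates 1, 2 and 3 in turn the difference was -0.40, -0.58 and -0.89. Leaving out CUMS-Flx replicates 1, 2 and 3 gave -0.49, -0.83 and -0.55.

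CUMS-Alb averaged 60.1 ± 5.38 FPKM of Sgk1, within the CUMS-Sal range (log2 difference -0.18, 95% interval -0.78 to 0.42). Without CUMS-Sal replicate 1 that difference was 0.05 and without CUMS-Sal replicate 3 it was -0.44. The drug groups differed by 0.44 in CUMS-Alb against CUMS-Flx (-0.15 to 1.04, limma adjusted p = 0.955). From Ctrl-Sal, CUMS-Alb differed by 0.19 (-0.41 to 0.78) and CUMS-Flx by -0.26 (-0.86 to 0.34). Leaving out Ctrl-Sal replicates 1, 2 and 3 in turn gave 0.03, 0.50 and 0.03 for CUMS-Alb. For CUMS-Flx it gave -0.41, 0.05 and -0.41. With a half-width of 0.60 log2 units, a factor of 1.51, these intervals leave room for sizeable changes in either direction.

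Hsd11b1 (ENSRNOG00000005861), whose enzyme turns inert 11-keto steroid into active hormone, had its highest group mean in Ctrl-Sal. CUMS-Alb replicates 1, 2 and 3 stood at 28.4, 25.8 and 28.0 FPKM and CUMS-Flx replicates 1, 2 and 3 at 28.8, 29.0 and 28.4 FPKM. CUMS-Sal libraries held 30.0, 27.4 and 30.8 FPKM, against 33.9, 33.3 and 29.0 FPKM for Ctrl-Sal. Every CUMS-Alb library lay below every Ctrl-Sal library, as for 6.37% of all rows, and below every CUMS-Flx library, as for 3.13%. Against CUMS-Flx this rests on a near tie, with CUMS-Alb replicate 1 at 28.4296 and CUMS-Flx replicate 3 at 28.4304 FPKM. Counting error is 3.07% and 2.83% for these values. CUMS-Flx and CUMS-Sal overlapped Ctrl-Sal through Ctrl-Sal replicate 3.

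CUMS-Alb averaged 27.4 ± 1.4 FPKM of Hsd11b1 and Ctrl-Sal 32.0 ± 2.69 FPKM (SD, n = 3). The log2 difference was -0.22 (95% interval -0.38 to -0.06, unadjusted p = 0.0109), at a limma adjusted p of 0.0843, the smallest of the 36. The largest unadjusted p called in that comparison was 0.00125. Since the median row was 0.09 higher in CUMS-Alb, Hsd11b1 lay 0.31 below it. At an adjusted p under 0.05 it was called in 1 alternative, without Ctrl-Sal replicate 3, at a log2 difference of -0.29 (limma adjusted p = 0.0235), and its adjusted p ran up to 0.231 over the alternatives. Against Ctrl-Sal, CUMS-Flx differed by -0.15 (-0.31 to 0.01, limma adjusted p = 0.306) and CUMS-Sal by -0.12 (-0.28 to 0.04, limma adjusted p = 0.287). The CUMS-Sal difference in Hsd11b1 was -0.22 with centred libraries and -0.21 with quantile normalization (limma adjusted p = 0.0934 and 0.120). Leaving out CUMS-Sal replicate 2 gave -0.07 (limma adjusted p = 0.617), and leaving out Ctrl-Sal replicate 1 or 3 gave -0.08 or -0.19 (limma adjusted p = 0.551 or 0.0819). Against CUMS-Sal, CUMS-Alb differed by -0.10 (-0.26 to 0.06) and CUMS-Flx by -0.03 (-0.19 to 0.13).

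Crh (ENSRNOG00000012703), the peptide hormone gene that in the hippocampus is known from interneurons, was detected at low depth. CUMS-Alb replicates 1, 2 and 3 stood at 1.57, 1.03 and 1.21 FPKM and CUMS-Flx replicates 1, 2 and 3 at 1.36, 1.45 and 1.02 FPKM. CUMS-Sal libraries held 1.34, 1.58 and 0.924 FPKM, against 1.42, 0.962 and 0.933 FPKM for Ctrl-Sal. These values rest on 17 to 29 reads. Their SD within groups, 0.23 log2 units, is close to the 0.21 that counting gives. The groups overlapped in all 6 comparisons, and the differences ran from -0.01 to 0.15 with limma adjusted p of 0.631 to 0.9996. The 95% intervals reach 0.40 log2 units to either side, a factor of 1.32, and a call over all rows needs a difference larger still.

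**Figure D4:**
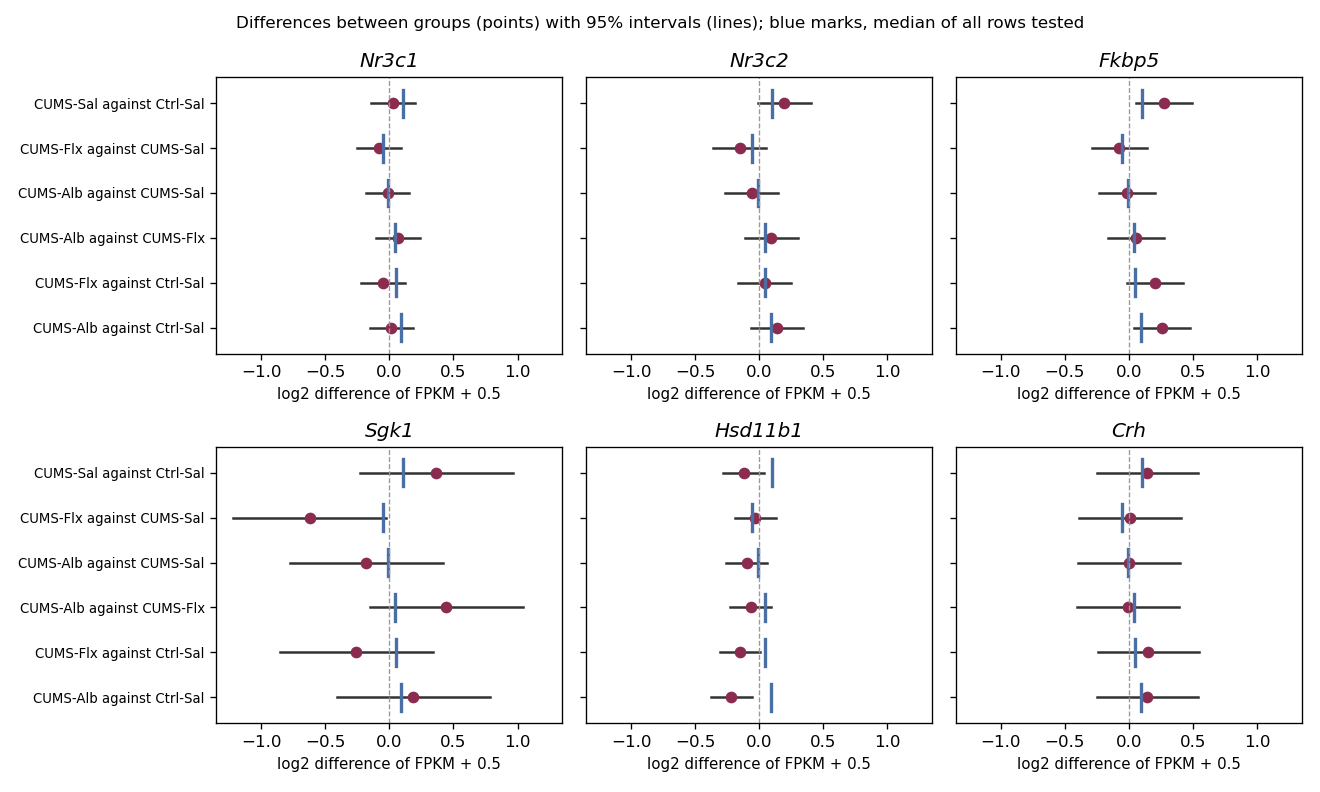
Log2 differences of FPKM + 0.5 (points) with 95% intervals (lines) for the 6 genes in 6 comparisons, the group named first over the group named second; blue marks give the median of all rows tested. Of the 36 intervals 32 include 0, and those of Sgk1 are the widest.

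As a group, the 6 genes had median differences near those of the whole table. Their median log2 difference was 0.17 in CUMS-Sal against Ctrl-Sal, where the median of all rows was 0.10, and 0.14 in CUMS-Alb against Ctrl-Sal, where it was 0.09. In CUMS-Flx against Ctrl-Sal it was 0.00, against 0.05. Against CUMS-Sal it was -0.08 in CUMS-Flx and -0.04 in CUMS-Alb, where the medians of all rows were -0.05 and -0.01. In CUMS-Alb against CUMS-Flx it was 0.06, against 0.04. Libraries did not overlap in 5 of the 36 pairs, 2 for Fkbp5, 2 for Hsd11b1 and 1 for Nr3c2. That of Hsd11b1 in CUMS-Alb against CUMS-Flx was a near tie. There were 0 such genes in CUMS-Sal against Ctrl-Sal, CUMS-Flx against CUMS-Sal and CUMS-Alb against CUMS-Sal, where 31.1%, 17.9% and 11.3% of all rows did not overlap.

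Rows with a pattern like that of each gene were ranked by Pearson's r of log2(FPKM + 0.5) over the 12 libraries, as a description. The row most like Sgk1 was ENSRNOG00000009565, at r = 0.921 and a mean of 2.72 FPKM, followed by Novel00969, a row without an Ensembl ID, at 0.905. Without Ctrl-Sal replicate 2 their order was turned, with 0.908 for ENSRNOG00000009565 and 0.933 for Novel00969. For Fkbp5 these were ENSRNOG00000024886, at 0.953, and ENSRNOG00000007284, at 0.940. For the other 4 genes the highest r was 0.877 to 0.944. These rows were picked as the top of all other tested rows, and the libraries share their group structure and scaling.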

How the data were processed

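The 12 libraries were put into 4 groups of 3 by their titles. Per the labels, tissue was snap-frozen and RNA extracted with TRIzol. The submitters' processing notes name TopHat2 and build rn6; the read counter, annotation and strand setting are not stated there, and without the strand setting reads of overlapping genes cannot be told apart. The authors deposited FPKM, a unit read from the values since the header names none.

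Whole reads and lengths were recovered from the FPKM for 22737 of 22737 rows above 0 (within 0.0001 of a read, slightly wider for high counts, at the shortest length that gave whole reads), giving 14735953 to 18109623 reads a library. Limma 3.58.1 in R 4.3.3, with trend and robust settings, was fitted to log2(FPKM + 0.5) of all 12 libraries over the 15253 rows whose mean reached 0.5 FPKM; this scale understates changes of low genes such as Crh. P-values were adjusted over all these rows (Benjamini-Hochberg). Scripts were tested on simulated data. Replicates differed beyond counting noise in 12 of 12 pairs.

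The 6 genes, tests and lists were chosen with earlier results of these data known. All 6 were named by rule, with the 2 rows most like each, of which those of Sgk1 and Fkbp5 are printed. Wider lists of pathway genes and cell type markers were not analysed here, since 0 Ensembl IDs are in the gene table used. Promoter windows came from RefSeq (GRCr8) for 3 of the 6 symbols. Alternatives were other scalings, filters, pseudocounts, test settings, a replicate block, limma-voom and leaving out each library. Plots used matplotlib 3.10.9.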

Additional observations from a re-analysis of the deposited data

How the results depend on the processing

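Over 23 alternatives, 780 of 822 refits of a single gene kept the direction and the side of the threshold, 39 changed sign and 3 passed the threshold. Many of these refits could not change the log2 difference. Among them were those without a library of a group not compared, the replicate block, other filters or test settings, and the looser threshold. The 780 therefore overstate how far directions were put to a test. The count of the 6 genes called was 0 throughout, except for 1 in CUMS-Sal against Ctrl-Sal (Fkbp5) and 1 in CUMS-Alb against Ctrl-Sal (Hsd11b1) at an adjusted p under 0.1, and 0 to 1 in CUMS-Alb against Ctrl-Sal when single libraries were left out, with 1 without Ctrl-Sal replicate 3. The cause was not tested.

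Sign changes came mostly with values near 0. Quantile normalization and centred libraries gave Nr3c1 -0.082 and -0.075 in CUMS-Sal against Ctrl-Sal and -0.085 and -0.079 in CUMS-Alb against Ctrl-Sal, Hsd11b1 0.0052 and 0.023 in CUMS-Flx against CUMS-Sal, Crh 0.00043 and 0.0098 in CUMS-Alb against CUMS-Sal, and Nr3c2 -0.00575 and -0.00574 in CUMS-Flx against Ctrl-Sal. With a pseudocount of 0.1, Crh was at 0.0023 in CUMS-Alb against CUMS-Sal. With single libraries left out, sign changed within these ranges: in CUMS-Sal against Ctrl-Sal, -0.00392 to 0.0797 for Nr3c1; in CUMS-Flx against CUMS-Sal, -0.0799 to 0.0037 for Hsd11b1, -0.14 to 0.13 for Crh; in CUMS-Alb against CUMS-Sal, -0.0539 to 0.0251 for Nr3c1, -0.17 to 0.00866 for Nr3c2, -0.14 to 0.051 for Fkbp5, -0.44 to 0.0452 for Sgk1, -0.15 to 0.12 for Crh; in CUMS-Alb against CUMS-Flx, -0.0055 to 0.11 for Nr3c1, -0.00293 to 0.12 for Fkbp5, -0.13 to 0.0939 for Crh; in CUMS-Flx against Ctrl-Sal, -0.0886 to 0.0201 for Nr3c1, -0.00842 to 0.12 for Nr3c2, -0.47 to 0.0523 for Sgk1; in CUMS-Alb against Ctrl-Sal, -0.0255 to 0.0659 for Nr3c1.
The wider table depended more on the fit and the threshold: rows called ran from 0 to 3173 in CUMS-Sal against Ctrl-Sal (1402 as reported; 0 when the fit held only the groups compared), 0 to 2373 in CUMS-Alb against Ctrl-Sal (381; 0 under the replicate block, without trend and robust settings, or without CUMS-Alb replicate 2 or 3 or CUMS-Sal replicate 1 or 3), 0 to 544 in CUMS-Flx against Ctrl-Sal (8), 0 to 3 in CUMS-Alb against CUMS-Flx (1), 0 to 5 in CUMS-Flx against CUMS-Sal (0), 0 to 4 in CUMS-Alb against CUMS-Sal (0) and 0 to 803 for any difference among the groups (7). The counts of 3173, 2373 and 803 are the reported fit read at an adjusted p under 0.1. At 0.05 the highest counts there were 2637, 2356 and 778, each without Ctrl-Sal replicate 3.

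No sign was seen that the replicate numbers pair the libraries: deviations of same-numbered libraries correlated at -0.159 to 0.127, over 0.1 in 1 of 18 pairs. Such correlations do not exclude a pairing. With the number as a block, 0 of the 6 genes were called in each comparison, and rows called were 565 in CUMS-Sal against Ctrl-Sal and 0 in CUMS-Alb and CUMS-Flx against Ctrl-Sal. Depth limits Crh, whose spread is close to counting error. The count of called pathway list genes was not run, since the list could not be matched.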
